A study of Mus musculus with 4 samples.

Results

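Type II spiral ganglion neurons are the small set of cochlear afferents whose unmyelinated fibres run along the outer hair cells. The members described here are the 95 cells that the authors' deposited annotation calls type II, out of 6713 annotated neurons. All cells came from 4 wild-type male mice of the CBA/CaJ strain, 9 weeks old, and the tissue of both ears of a mouse was pooled into 1 library. The modiolus, the bony core of the cochlea, was dissected from the temporal bones with the spiral ganglion, spiral limbus, inner sulcus and parts of the organ of Corti, digested with enzymes and captured in droplets (10x Genomics, v2 chemistry). Transcripts were counted from their 3′ ends as unique molecular identifiers (UMIs). Mice 1 to 4 gave 23, 15, 34 and 23 type II cells, which is 1.86%, 0.672%, 1.98% and 1.51% of their cells. The rest of the annotation is 6113 type I cells (2384 IA, 1625 IB and 2104 IC cells) and 505 cells called putative spiral ganglion neurons.

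Type I neurons carry the sound signal from inner hair cells through myelinated axons. Type II neurons contact many outer hair cells through thin fibres, respond weakly to sound, and are known for the intermediate filament protein peripherin and, in the mouse, for tyrosine hydroxylase. Their part in hearing is less settled, and a role in sensing damage to the organ of Corti has been proposed.

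A mouse was the replicate throughout. UMIs were summed per mouse and population, and levels are given in CPM, a gene's UMIs divided by all UMIs of the sum and times 1e+06. A sum cannot tell fewer cells with a transcript from less transcript per cell. The type II sums held 546679, 131668, 390376 and 220075 UMIs in mice 1 to 4, against 13996728 to 25574677 UMIs in the type I cells of a mouse once the subtypes are added up. Differences are log2 values from edgeR's quasi-likelihood test blocked by mouse, given with their standard error (SE), and a gene was called at a Benjamini-Hochberg adjusted p under 0.05 over all genes tested. The labels and the UMIs compared come from the same cells, so a called gene is a description of the labelled cells and not independent evidence. In all, 26 barcodes occurred in more than 1 library, and 2 type II cells carried such a barcode.

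The label was first held against 5 genes that mark type II neurons. Prph encodes peripherin and Th tyrosine hydroxylase, the rate-limiting enzyme of catecholamine synthesis. Gata3 encodes a transcription factor of inner ear development, Myl1 a light chain of myosin that fast muscle fibres make, and Dupd1 a phosphatase of the dual-specificity family. On the mouse build GRCm38 (GENCODE annotation) Prph lies on chromosome 15 (99055174 to 99058978, plus strand) and Dupd1 on chromosome 14 (21676537 to 21714576, minus strand). Myl1 lies on chromosome 1 (66924295 to 66945404), Gata3 on chromosome 2 (9857078 to 9890034) and Th on chromosome 7 (142892752 to 142931128), all 3 on the minus strand. Dupd1 and Prph had the largest log2 differences of the 5, and the 250 bases before their gene starts are shown, 5′ to 3′ on the gene's strand (RefSeq, GRCm38.p6, a C57BL/6J reference and not the CBA/CaJ strain of these mice). Capitals mark, in Dupd1, a MEF2-like motif (the core that MEF2 factors bind, with its 3 outer letters on each side required and any 4 bases between), and the motif TATAAA, the TATA box, in Prph. The windows shown are chr14:21714577-21714826 for Dupd1 and chr15:99054924-99055173 for Prph.
Dupd1: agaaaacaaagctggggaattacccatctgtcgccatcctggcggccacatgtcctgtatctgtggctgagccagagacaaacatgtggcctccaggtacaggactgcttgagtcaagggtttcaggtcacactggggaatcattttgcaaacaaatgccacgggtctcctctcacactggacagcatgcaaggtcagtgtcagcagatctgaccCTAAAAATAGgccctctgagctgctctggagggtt
Prph: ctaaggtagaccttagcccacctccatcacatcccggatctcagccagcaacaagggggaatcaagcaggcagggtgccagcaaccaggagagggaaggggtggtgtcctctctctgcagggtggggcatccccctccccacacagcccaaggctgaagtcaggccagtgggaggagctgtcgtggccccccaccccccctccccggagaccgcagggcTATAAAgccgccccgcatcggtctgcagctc

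The MEF2-like motif starts at position -35 from the Dupd1 start and the TATA box at -31 from the Prph start. Both motifs and AGATAA, a sequence that GATA factors bind, were searched on both strands in the same 250 bases of 32851 gene starts. The MEF2-like motif was found in 3.2% of these windows, TATAAA in 12.4% and AGATAA in 9.99%. The Myl1 window held TATAAA on the opposite strand at -95, the Th and Gata3 windows held none of the motifs, and no marker's window held AGATAA. These windows precede RefSeq starts, at chr1:66945057-66945306 for Myl1, chr7:142899996-142900245 for Th and chr2:9878601-9878850 for Gata3. They lie inside the GENCODE spans given above, so the bases before the starts of those spans were not searched for these genes. The TATA box was added to the search after the windows had been seen. These matches describe letters and no binding was measured.

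All 5 markers were far higher in the type II sums than in any other population. Prph stood at 165, 456, 384 and 895 CPM in mice 1 to 4, and the 12 type I sums ran from 0.295 to 2.35 CPM. Dupd1 was at 549, 1291, 1596 and 1354 CPM against 0.671 to 3.85 in type I. Myl1 was the most abundant of the 5, at 2479, 6919, 5730 and 5612 CPM against 7.27 to 53.6. No type II sum overlapped a type I sum for any of the 5 genes, and mouse 1 was lowest for Prph, Dupd1, Myl1 and Th. Th reached 32.9, 152, 120 and 141 CPM, with type I at 0 to 0.833, and Gata3 reached 260, 243, 374 and 418 CPM, with type I at 31.3 to 52.1. The log2 differences were 8.96 ± 0.21 (SE) for Dupd1, 8.51 ± 0.17 for Prph, 8.09 ± 0.16 for Myl1, 8.06 ± 0.31 for Th and 2.98 ± 0.12 for Gata3, each higher in 4 of 4 mice. Gata3 thus differed least, and type I neurons also held its transcript. In the putative neurons the means were 2.98 CPM for Prph, 8.16 for Dupd1, 61.0 for Myl1, 0.927 for Th and 34.9 for Gata3.

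**Figure D1:**
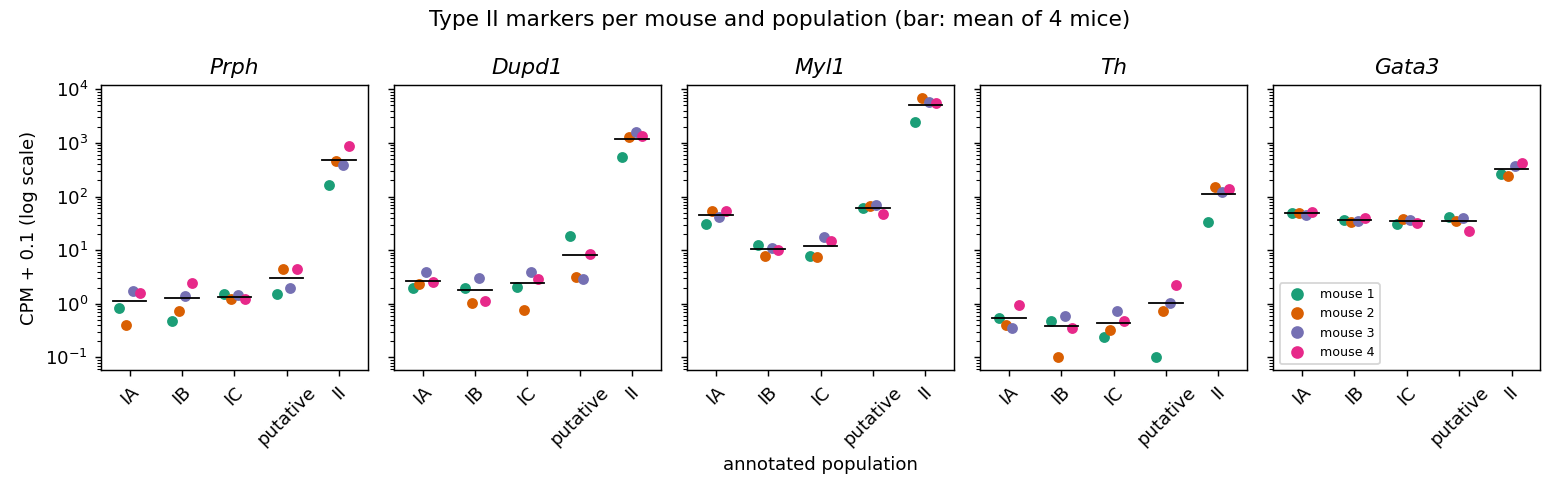
Level of each type II marker (CPM + 0.1, log axis) in the annotated populations, with 1 point per mouse and a bar at the mean of 4 mice. Every type II point lies above every type I and putative point, and mouse 1 has the lowest type II point for Prph, Dupd1, Myl1 and Th.

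Shares of cells with at least 1 marker UMI were compared after every cell had been thinned to 4215 UMIs, which left out the shallower cells (5 of type II, 205 of IA, 98 of IB and 126 of IC). Dupd1 was then seen in 47.8%, 76.9%, 66.7% and 76.2% of the type II cells of mice 1 to 4, a mean of 66.9% against 0.913% of type I cells. Prph was seen in 30.4%, 53.8%, 51.5% and 81.0%, a mean of 54.2% against 0.431%. Mouse 1 had the lowest share for both genes. The mean shares were 82.7% against 7.37% for Myl1, 64.1% against 15.6% for Gata3 and 28.7% against 0.0421% for Th. Each share was higher in 4 of 4 mice, with exact two-sided sign-flip permutation p = 0.13 (2 of 16 arrangements), the smallest that 4 mice allow, so no such test can pass 0.05. Without thinning the shares were 67.9% against 2.69% for Dupd1, 61.8% against 1.49% for Prph, 85.8% against 17.5% for Myl1, 86.6% against 38.7% for Gata3 and 39.0% against 0.480% for Th. No annotated population is known to lack these genes, and the type I share is the background beside each value. Median depth was 12385 ± 5888 UMIs per cell in type II (mean ± SD over 4 mice) and 13166 to 15802 in the type I subtypes.

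The 95 cells did not carry the markers alike. Of them 29 held a UMI of all 5 genes and 31 held 4, while 4 held 3, 17 held 2, 8 held 1 and 6 held none. The cells are described below as the 64 with 3 or more markers and the 31 with 0 to 2, with 4 cells just above that boundary and 17 just below it. This division was made after the data had been seen, and the comparison of its sides is a description with no test. The 5 markers made this division, so their own counts on its sides only describe it. Dupd1 had a UMI in 64 of the 64 cells and in 0 of the 31, where a missing UMI does not show a missing transcript. Th was seen in 36 and 0 cells, Prph in 57 and 1, Myl1 in 63 and 19 and Gata3 in 61 and 22. The commonest pattern among the 31 was Myl1 with Gata3 and nothing else, in 17 cells. The single Prph-positive cell among them, in mouse 4, held 103 Prph UMIs, which is 20.7% of all Prph UMIs in type II.

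The 31 cells were deeper when pooled. Their median was 18025 UMIs (range 2411 to 79498) against 9706 (3549 to 22713) in the 64 and 13351 in type I. By mouse the medians of the 31 and the 64 were 24723 and 14178 in mouse 1, 9751 and 9835 in mouse 2, 11520 and 9659 in mouse 3 and 18327 and 6728 in mouse 4, so mouse 2 showed no such gap. The 31 cells held 52.0% of all type II UMIs. That share was 72.4% in mouse 1, 30.1% in mouse 2, 41.3% in mouse 3 and 33.3% in mouse 4. Mouse 1 is also the mouse with the lowest levels of Prph, Dupd1, Myl1 and Th. With the 64 cells alone Prph stood at 636 ± 26.6 CPM (mean ± SD, n = 4) in place of 475 ± 306, Dupd1 at 2147 ± 389 in place of 1198 ± 452 and Myl1 at 8657 ± 842 in place of 5185 ± 1898. These 3 spreads between mice were narrower without the 31 cells. For Prph the 31 include the mouse 4 cell that held 103 of the 197 Prph UMIs of type II in that mouse. The spread of Th went from 112 ± 54.0 to 188 ± 46.1 CPM, while that of Gata3 was wider, at 531 ± 189 in place of 324 ± 85.7. Of 6113 type I cells 36 held 3 of the 5 markers, 2 held 4 and 0 held 5.

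**Figure D2:**
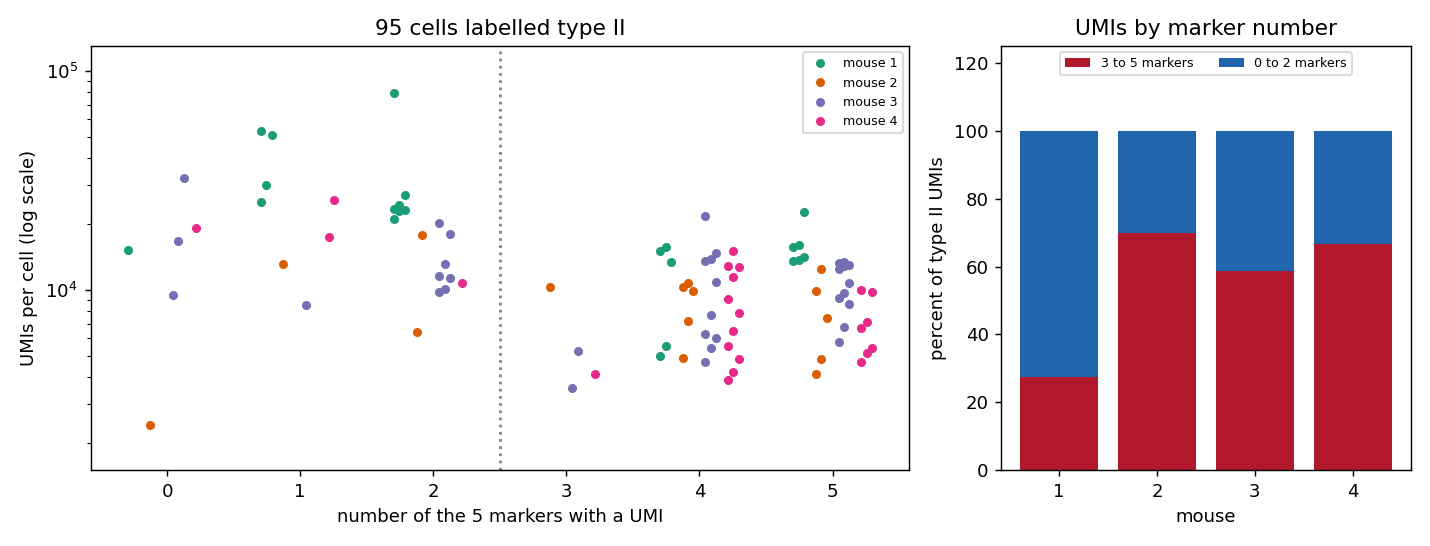
Left, the 95 labelled cells by the number of the 5 markers with a UMI (horizontal, points spread sideways within a number) and UMIs per cell (log axis), coloured by mouse. Right, the percent of each mouse's type II UMIs that lay in cells with 3 to 5 or 0 to 2 markers, where the 0 to 2 side holds 72.4% in mouse 1 and 30.1% in mouse 2.

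The cells on each side also differed in other genes, given here as CPM over the pooled cells. Genes named in this and the next paragraphs outside the rule in the methods were picked after their values were seen. Nog, an antagonist of BMP signals, stood at 123 CPM in the 64 cells, 7.46 in the 31 and 0.235 in type I. Cilp, a cartilage matrix gene, stood at 108, 1.49 and 0.247 CPM in the same order. Kcnc4, a potassium channel subunit, had a UMI in 45 of the 64 cells and 7 of the 31. The ephrin gene Efna5 was at 246, 19.4 and 5.69 CPM, the copine gene Cpne8 at 251, 13.4 and 3.52 and the calcium-binding protein gene Necab1 at 95.4, 10.4 and 0.395. Slc6a4, the serotonin transporter, had a UMI in 17 of the 64 cells and none in the 31, and Edaradd and the chloride channel gene Ano2 likewise had none in the 31 (a level of up to 4.48 CPM is allowed by 0 UMIs there). Like Dupd1, these genes lay mostly in the 64 cells.

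Other transcripts lay on the opposite side. Pcp4, a small calmodulin-binding protein gene, stood at 1373 CPM in the 31 cells, 1.62 in the 64 and 5.03 in type I, and its UMIs came from 17 of the 31 cells (7, 1, 8 and 1 in mice 1 to 4). The potassium channel gene Kcnb2 was at 242 CPM in the 31 cells, 1.48 in type I and at no UMI in the 64. Kcnc2, another potassium channel gene, stood at 187, 16.2 and 4.88 CPM in the 31, the 64 and type I. Tac1, the substance P precursor, reached 319 CPM in the 31 cells, but 59.1% of its type II UMIs lay in 1 cell.

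Some transcripts typical of type I neurons were also nearer to the type I level in the 31 cells when pooled, where mouse 1 gave 396024 of 670109 UMIs. Slc17a7, the vesicular glutamate transporter of most type I neurons, stood at 249 CPM in the 31, 37.2 in the 64 and 425 in type I. Lypd1, a marker of 1 type I subtype, stood at 1216, 82.4 and 1179 CPM. Its means were 110 CPM in IA, 200 in IB and 2953 in IC, so the pooled type I level is that of no subtype. The 31 cells were 12, 4, 11 and 4 in mice 1 to 4, and mouse 4, on its 4 cells, differed in both genes. At 4215 UMIs per cell Slc17a7 was seen in 0% of its cells with 0 to 2 markers, against 66.7% to 81.8% in the other mice. Lypd1 was seen there in 25% against 66.7% to 90.9%. The transcription factor gene Pou4f1 stood at 137, 8.08 and 71.8 CPM, with means of 8.03 in IA, 30.7 in IB and 167 in IC. Prox1, a homeobox gene of type I neurons, was low on both sides, at 16.4 and 6.47 CPM against 77.9 in type I. The summed level of 10 type I markers per cell had a median of 7307 CPM (1242 to 20260) in the 31 cells and 2519 CPM (485 to 8153) in the 64, so the ranges overlapped. In mouse 4 these medians were 4562 and 1692 CPM, the same direction as in the pooled cells. The label type II thus covers cells that carry its marker set and cells that carry little of it. Some genes stood above type I on both sides. Sncg, encoding gamma-synuclein, stood at 587 CPM in the 64, 1194 in the 31 and 200 in type I. Rph3a, an effector of vesicle release, stood at 561, 322 and 59.8 CPM, Syt1 at 93.7, 128 and 1.56 and Cplx2 at 103, 160 and 7.71.

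**Figure D3:**
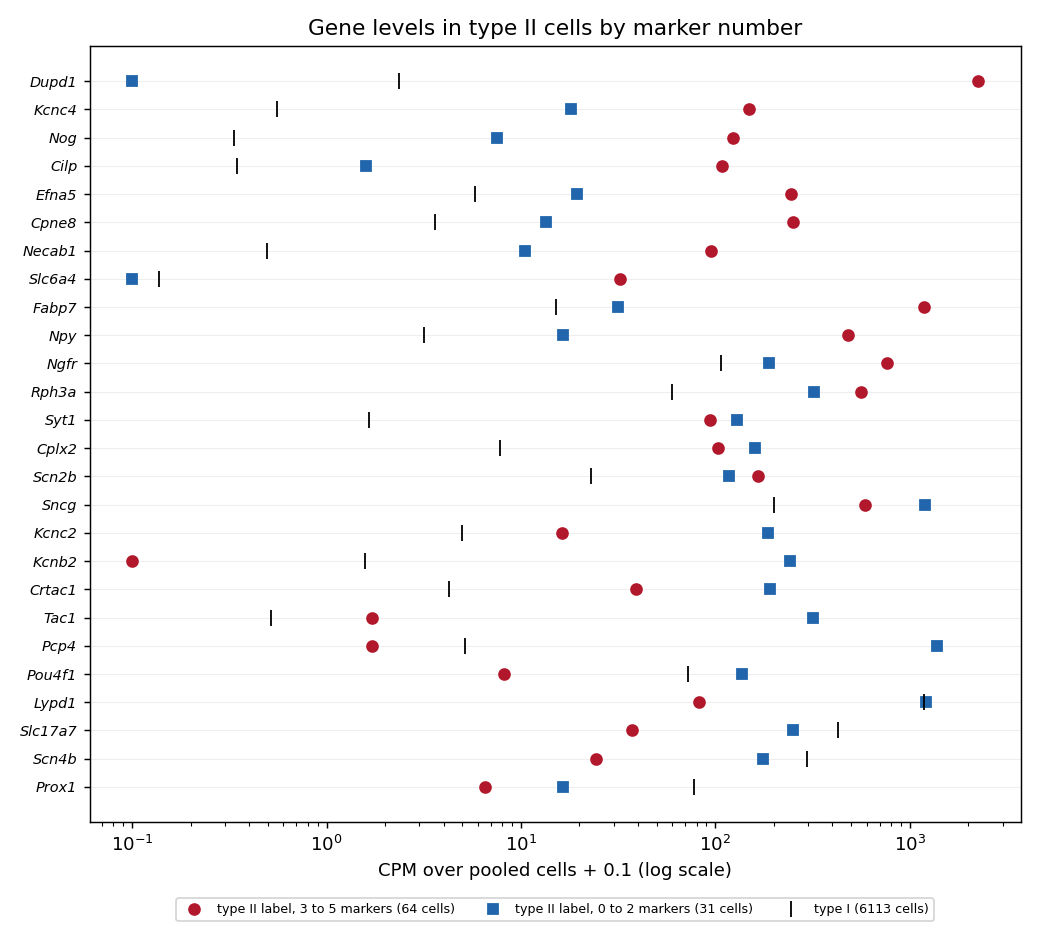
Level of selected genes (CPM over the pooled cells + 0.1, log axis) in the 64 type II cells with 3 to 5 markers (circles), the 31 with 0 to 2 (squares) and 6113 type I cells (bars). Genes at the top, such as Dupd1 and Nog, lie high in the 64 cells, and those in the middle, such as Syt1 and Sncg, lie above type I in both. Genes further down, such as Pcp4 and Lypd1, lie higher in the 31 than in the 64. Slc17a7 and Prox1, near the bottom, lie below type I in both.

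Satellite glia ensheathe the cell bodies of ganglion neurons, and some of their markers were higher in type II. The sum of the 9 such markers in the tables was 8740 ± 2031 CPM in type II (range 5801 to 10424), against means of 1334 to 1446 CPM in the type I subtypes and 8315 in putative neurons. Apoe alone gave 7365 CPM of the type II sum. Fabp7, Apoe, Ednrb, Ptprz1, Ttyh1 and Sparc were called higher than in type I. Sox10 (log2 -0.02), Glul (0.14) and Cdh19 (0.59) were not called. Fabp7, a fatty acid binding protein gene of these glia, had 3 or more UMIs in 38 of the 95 type II cells, 44 of 6113 type I cells and 96 of 505 putative cells. Within type II 35 of these 38 cells were among the 64. Per cell, the glial sum had a median of 5308 CPM (295 to 83410) in the 64 cells and 1298 (546 to 12330) in the 31, and it passed 10000 CPM in 27 of the 64 (4, 4, 9 and 10 in mice 1 to 4). Apoe, the glial lipoprotein gene, stood at 12890 CPM in the 64 cells, 1239 in the 31 and 951 in type I. No doublet caller was run, and the part of these transcripts in the calls below was not tested beyond leaving out the cells with 3 or more Fabp7 UMIs. Without them the glial sum of type II was 1585 ± 355 CPM, Prph still differed by 8.32 on the log2 scale, Dupd1 by 8.68, Myl1 by 7.79, Th by 7.83 and Gata3 by 2.52. Npy, the neuropeptide Y gene, was at 134, 418, 254 and 377 CPM in type II and 2.01 to 4.85 in type I (log2 6.37 ± 0.30). Without the cells with 3 or more Fabp7 UMIs its difference was 0.11 (adjusted p = 0.962, edgeR). In putative neurons, which also hold such cells, Npy stood at 223 CPM.

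**Figure D4:**
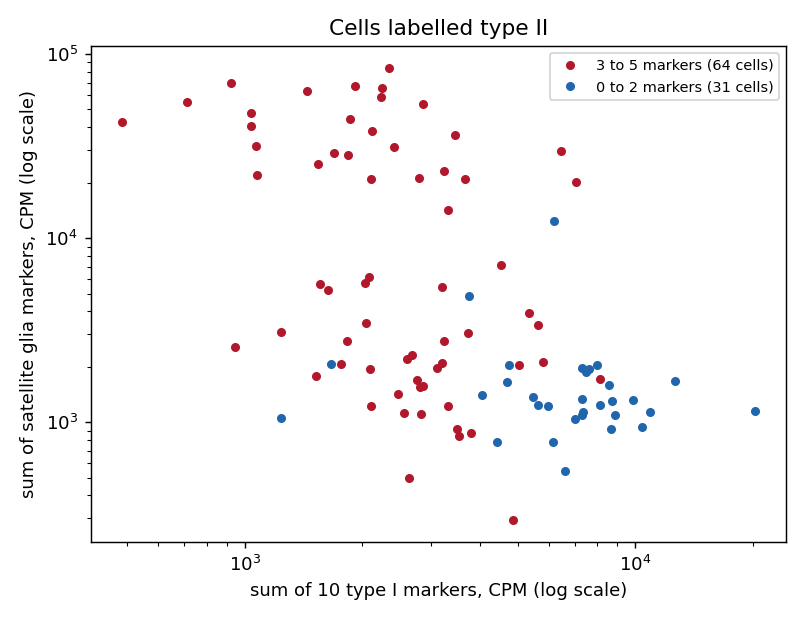
Each point is 1 of the 95 labelled cells, placed by the summed level of 10 type I markers (horizontal) and of the satellite glia markers (vertical), both in CPM on log axes. Cells with 3 to 5 markers reach up to 83410 CPM on the glial axis, with 27 above 10000, and cells with 0 to 2 markers lie mostly to the right at a glial sum near their median of 1298 CPM.

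Some markers of other cell types were at or near 0 and others were not. Of the 8 hair cell markers in the tables Ocm, Pou4f3, Myo7a and Gfi1 had no UMI in type II. Otof and Tmc1 had 4 UMIs each, at means of 4.32 and 3.37 CPM against at most 2.80 and 0.839 in type I. Cib2 stood at 69.9 CPM against 98.2 to 308 in type I, and Lhfpl5 at 30.5 CPM against 19.8 to 31.9. The sympathetic neuron markers Slc6a2, Slc18a2 and Phox2a had none, so that Npy made up that list's 296 ± 129 CPM. Skeletal muscle genes were checked because Myl1 is one of their own. Tnnt3, Tnni2 and Tnnc2 had no UMI, Acta1 and Actn3 had 1 each, Mylpf 2 and Mb 5. The list's 2985 ± 799 CPM was mostly Pvalb, a neuronal calcium-binding protein as well, at 2918 CPM. Tcap, a titin-binding protein of the Z disc, was called higher, at 91.5, 0, 2.56 and 150 CPM against 2.50 to 7.55 in type I (3.40 ± 0.68, adjusted p = 0.0021, edgeR). Its 84 UMIs lay in 2 of the 64 cells and 7 of the 31. Mice 1 and 4 stood above type I and mice 2 and 3 did not. Schwann cell markers summed to 3678 ± 946 CPM in type II and to means of 3510 to 3932 in the type I subtypes, and red blood cell markers to 833 ± 703 CPM and 825 to 890. Supporting cell markers summed to 192 ± 75.7 CPM against 130 to 138, and fibroblast markers to 160 ± 64.8 CPM against 106 to 112. For endothelial markers the sums were 35.9 ± 6.48 CPM against 44.7 to 49.0, and for macrophage markers 107 ± 51.2 CPM against 99.8 to 110. The neuron markers summed to 8156 ± 1288 CPM against 9096 to 9985.

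In all, 13005 genes could be tested. Of these 1560 (12%) were called higher in type II than in type I and 1528 (11.7%) lower, with 1154 (8.87%) higher and 990 (7.61%) lower than each of the 3 type I subtypes. The 4 type II sums all lay above the 12 type I sums for 1097 genes (8.44%) and all below for 1161 (8.93%). With cells of the 64 alone 1613 of 12941 genes were called higher (12.5%) and 2333 lower (18%). A check with separate labels used each cell's UMIs divided at random into equal parts. A total of 71 cells held 3 or more markers in the first part, 61 of them labelled type II, 7 IA, 1 IB and 2 IC, and the second part of their UMIs was compared with that of the remaining type I cells. In this check 885 of 11762 genes were called higher (7.52%) and 1340 lower (11.4%). Leaving out cells with 3 or more Fabp7 UMIs gave 892 of 12996 higher (6.86%) and 1022 lower (7.86%). The split into higher and lower calls moved with the cells and the tool, from 50.5% higher in the main comparison to 61.9% with DESeq2, 40.9% with the 64 cells and 39.8% with the separate labels.

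In all, 203 genes, the markers among them, met the rule for strong and steady increases: called higher than each subtype, higher by at least 2 on the log2 scale than the mean of type I, and still called without the Fabp7-rich cells. In the separate-label check 153 of the 177 that could be tested were called the same way and 4 had the other sign. The 203 genes were chosen from all UMIs of the same cells, and the markers also gave the labels. This share is therefore no separate support. Of all 3088 calls against type I, 1726 were made again in that check. The most abundant of the 203 besides the markers are described here. Tmsb10, an actin-binding thymosin, stood at 494, 1086, 730 and 1540 CPM in mice 1 to 4 against 144 to 212 in type I (log2 2.22 ± 0.17). Hspb1, a small heat shock protein, stood at 441, 744, 592 and 977 CPM against 89.1 to 214 (2.23 ± 0.08). In both genes mouse 1 was lowest and mouse 4 highest, and no type II sum overlapped type I. Ngfr, the p75 neurotrophin receptor, was at 364, 524, 566 and 500 CPM against 73.9 to 146 (2.09 ± 0.09), and Rph3a at 375, 456, 464 and 532 CPM against 17.6 to 141 (3.32 ± 0.11). Sncg reached 807, 820, 733 and 1490 CPM against 134 to 260 (2.23 ± 0.16), with mouse 4 apart from the others. S100a13 (2.42 ± 0.16) and Phyhipl (2.17 ± 0.11) were also among the 12 most abundant. Pcp4 met the rule too, at 680, 45.6, 1032 and 636 CPM against 3.04 to 6.23 (6.93 ± 0.32). Its sign turned to -1.74 with the 64 cells alone and to -0.12 with separate labels, neither called, and nearly all its UMIs lay in the 31 cells. Over all genes, calls in the opposite direction with separate labels were made for Hmcn1, Pou4f1 and Crim1.

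Among genes with at least 50 CPM in every type I subtype, 656 were steadily lower. All 656 could be tested with separate labels, where 568 were called lower and none had the other sign. They too were chosen from all UMIs of these cells, so this is no separate support. Prox1 stood at 18.3, 0, 10.2 and 4.54 CPM against 66.4 to 89.7 in type I (-2.85 ± 0.28), and Prox1os, transcribed from the opposite strand at the same locus, differed by -3.05 ± 0.33. The sources used here do not say whether counting used strand, so the overlapping pair cannot be told apart. Ccdc155, which encodes a nuclear envelope protein, had the largest fall, at 9.15, 0, 12.8 and 13.6 CPM against 72.3 to 179 (-3.49 ± 0.25). Hapln1, a link protein of the perineuronal matrix, stood at 9.15, 0, 10.2 and 4.54 CPM against 42.8 to 73.9 (-3.01 ± 0.31). Mouse 2, which has the fewest type II UMIs, had no UMI of any of these 3 coding genes. P2rx6 (-2.36), Cox8b (-2.23), Cd302 (-2.23), Sema3e (-2.13), Aifm3 (-2.01), Plppr4 (-1.96), Rasgrp2 (-1.95) and Pigz (-1.93) completed the 12. All 12 were also lower with the 64 cells alone, but this is no separate check. The rule had already required a lower call without cells that lack Prph, and 57 of the 64 cells held Prph.

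The gene groups below are read against 12% of all genes called higher and 11.7% lower, with a median log2 difference of -0.05 over all genes. For the 64 cells alone these values were 12.5%, 18% and -0.19 (-0.11 with genes that lack a UMI set at their bound). They were 7.52%, 11.4% and -0.20 with separate labels. Leaving out cells with 3 or more Fabp7 UMIs, they were 6.86%, 7.86% and -0.10. Part of a list's shift towards lower values in these settings can thus be shared with all genes. The lists were chosen with earlier results of these data known, so a count shows what the members did and is no test of the list. Prph belongs to the cytoskeleton, where 29 genes were tested, 12 were higher and 10 lower (median -0.09). Gap43, a growth cone protein, stood at 40.2, 30.4, 43.5 and 227 CPM against 0.208 to 6.64 in type I (4.52 ± 0.51), with mouse 4 far above the others. Stmn2, a tubulin-binding protein of growing axons, stood at 915, 1640, 1196 and 1550 CPM against 405 to 572 (1.34 ± 0.09). Tubb2b (2.55 ± 0.24) and Tuba1a (1.39 ± 0.10) were the tubulins with the largest increases. The neurofilament subunits went the other way, with Nefh at 1621, 904, 1173 and 750 CPM against 1773 to 2278 (-0.85 ± 0.10) and Nefl at -0.47 ± 0.09. Thus Prph, an intermediate filament, was higher where the neurofilament genes Nefl, Nefh and Ina were lower. The Nefl sums overlapped, at 1215 to 2023 CPM in type II and 1749 to 2599 in type I. Nefm was not called with all cells (-0.22) and was called lower with the 64 cells alone (-1.06).

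Myl1 belongs to the muscle proteins. Of 24 sarcomere, myosin and actin genes tested 4 were higher and 4 lower (median 0.01). Actn2, an actin cross-linker of the muscle Z disc, was higher at 20.1, 15.2, 12.8 and 31.8 CPM against 0.979 to 6.89 (2.94 ± 0.41), and was not called with separate labels (1.84, adjusted p = 0.16, edgeR). Ldb3, which encodes another Z disc protein, was lower (-1.47 ± 0.46) and had no UMI in the 64 cells. Ttn, the giant muscle protein titin, had 2 UMIs in type II. Dupd1 belongs to another family. Of 22 dual-specificity phosphatase genes 6 were higher and 3 lower (median 0.22), with Dusp26 at 101, 106, 97.3 and 168 CPM against 23.9 to 37.0 (1.77 ± 0.15) and Dusp1 at 251, 289, 313 and 295 CPM against 82.4 to 122 (1.36 ± 0.10). Dusp1 is an immediate early gene.

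Other genes of a catecholamine neuron were either not detected beside Th or not counted. Ddc, the next enzyme after Th, and the vesicular monoamine transporter gene Slc18a2 had 0 of 1288798 type II UMIs. This allows up to 2.33 CPM, and type I stood below that level for both, so absence is not shown. Dbh, another such gene, was not among the genes counted. The serotonin transporter gene Slc6a4 had 20 UMIs in type II, at 9.15, 30.4, 17.9 and 18.2 CPM, and 3 UMIs among all type I cells. Serotonin receptor genes were also higher. Htr7, a serotonin receptor, stood at 22.0, 7.59, 28.2 and 27.3 CPM against 4.81 to 8.87 (1.57 ± 0.32), with mouse 2 inside the type I range. Htr2c, another serotonin receptor (1.45 ± 0.28), was higher with all cells and with the 64 alone. In all 16 genes of monoamine synthesis, transport and reception were tested, of which 6 were higher and 1, the dopamine receptor gene Drd1, was lower (median 0.57). With separate labels 4 of 13 were higher and none lower (median -0.04).

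Neuropeptide and granin genes moved both ways, with 7 higher and 4 lower of 15 tested (median 0.30). The balance turned with the 64 cells alone, with 5 higher and 7 lower of 14 (median -0.57), and with separate labels, with 5 higher and 8 lower (median -0.60). Leaving out cells with 3 or more Fabp7 UMIs gave 3 higher and 3 lower of 13 (median -0.11). Scg2, secretogranin II, stood at 36.6, 38.0, 58.9 and 100 CPM against 0.155 to 1.01 in type I (7.09 ± 0.37). Calca, the gene of calcitonin and CGRP, stood at 14.6, 15.2, 20.5 and 68.2 CPM against 0 to 0.833 (6.47 ± 0.48). With separate labels Scg2 was higher by 6.69 and Calca by 6.51. Chgb, secretogranin I, was lower at 262, 220, 228 and 136 CPM against 499 to 910 (-1.75 ± 0.11), and by -3.28 with the 64 cells alone.

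Genes of glutamate reception were higher in 9 and lower in 5 of 20 cases (median 0.43). Counting the 64 cells alone, 7 were higher and 8 lower (median -0.54), and with separate labels 4 of 17 were higher and 6 lower (median -0.52). Grik3, a kainate receptor subunit, stood at 7.32, 38.0, 20.5 and 27.3 CPM against 0.166 to 0.773 (5.24 ± 0.53), and Neto2, an auxiliary subunit of kainate receptors, at 25.6, 30.4, 38.4 and 27.3 CPM against 0.522 to 3.33 (3.94 ± 0.36). Grin3a, an NMDA receptor subunit, had 19 UMIs and a difference of 5.82 ± 0.63. On the lower side were the AMPA receptor subunits Gria3 (-0.95 ± 0.15) and Gria4 (-1.01), the obligate NMDA subunit Grin1 (-1.17 ± 0.15) and the presynaptic receptor gene Grm7 (-2.26 ± 0.33). Gria2 was not called with all cells (0.20 ± 0.14) and was lower with the 64 cells alone (-0.80).

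The machinery of transmitter release was lower more often than higher. Of 38 vesicle and release genes tested 16 were lower and 10 higher (median -0.25). With the 64 cells alone 21 were lower and 6 higher of 36 (median -1.23, or -1.11 with the gene at 0 UMIs set at its bound). Snap25 stood at 3541, 1739, 2262 and 1677 CPM against 3895 to 4744 in type I (-0.95 ± 0.10), Syt2 at 210, 68.4, 190 and 81.8 CPM against 398 to 475 (-1.52 ± 0.12) and Vamp1 at 333, 159, 266 and 123 CPM against 492 to 555 (-1.14 ± 0.11). In all 3 genes of the fusion machinery mice 1 and 3 lay above mice 2 and 4, and no type II sum reached type I. Syt1, a fast calcium sensor like Syt2, stood at 128, 68.4, 79.4 and 154 CPM against 0.628 to 3.46 (6.17 ± 0.25). Vamp2 stood at 227, 251, 177 and 286 CPM against 42.4 to 57.7 (2.09 ± 0.12), and Cplx2 at 104, 68.4, 151 and 209 CPM against 2.50 to 16.3 (4.33 ± 0.21), where Cplx1 was lower (-0.91 ± 0.09). Syt5 also was higher, at 11, 30.4, 28.2 and 45.4 CPM against 0 to 0.295 (6.95 ± 0.52). Syt17 was called lower, with no UMI in type II (up to 2.33 CPM allowed) and 2.05 to 4.14 CPM in type I, and this call ended with DESeq2 (adjusted p = 0.12), with the 64 cells (0.14, edgeR) and without any 1 mouse.

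The vesicular glutamate transporters depended on which cells were counted. Slc17a7 stood at 227, 83.5, 118 and 40.9 CPM against 354 to 504 in type I (-1.68 ± 0.18), and at 35.4 CPM with the 64 cells alone (-3.67). Slc17a6 was called higher with all cells, at 227, 228, 218 and 123 CPM against 18.4 to 222 (1.16 ± 0.12). With the 64 cells alone its difference was 0.34 (adjusted p = 0.15, edgeR), and with separate labels 0.29 (adjusted p = 0.41). The type II and type I sums of Slc17a6 overlapped, with means of 19.8 CPM in type IA, 160 in IB and 207 in IC.

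**Figure D5:**
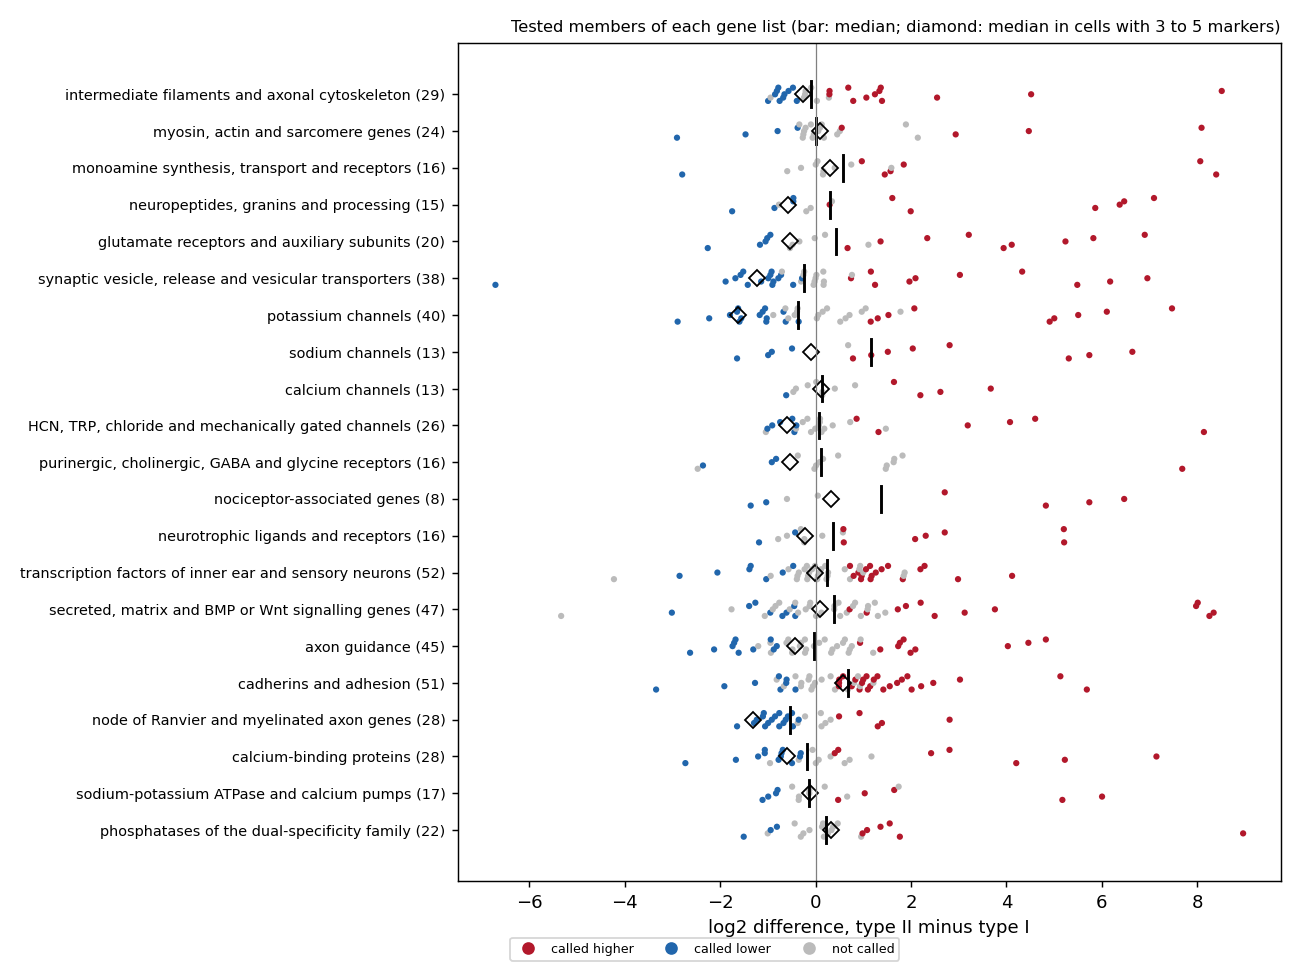
Log2 difference of type II from type I for the tested members of each gene list (number tested in parentheses), coloured by call, with a bar at the median and a diamond at the median when the 64 cells with 3 to 5 markers stand for type II. Fitted values are plotted, so points of genes with 0 type II UMIs, such as Syt17 at -6.71, have no meaningful size. Diamonds lie well to the left of the bars for vesicle, potassium channel, sodium channel and node genes, and close to them for adhesion genes.

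Of 40 potassium channel genes 15 were lower and 9 higher (median -0.36), and with the 64 cells 19 were lower and 7 higher (median -1.63, or -0.86 with the 4 genes at 0 UMIs at their bound). Kcnc4 stood at 45.7, 114, 105 and 105 CPM against 0 to 1.04 (7.47 ± 0.34), with mouse 1 lowest. Its relative Kcnc1, a fast delayed rectifier, was lower (-1.11 ± 0.20). Kcna2 stood at 252, 122, 190 and 136 CPM against 257 to 346 (-0.67 ± 0.11), and at -3.08 with the 64 cells. Kcnc2 (5.00 ± 0.23) and Kcnb2 (6.10 ± 0.40) were called higher with all cells, and both rest mainly on the 31 cells with 0 to 2 markers. With the 64 cells the difference was 2.35 for Kcnc2.

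Sodium channel genes were higher in 8 and lower in 4 of 13 cases (median 1.17), in 6 and 5 with the 64 cells (median -0.10), and in 2 and 5 of 10 with separate labels (median -1.05). Scn9a, the channel known from pain fibres, stood at 40.2, 114, 74.3 and 132 CPM against 0.434 to 2.91 (5.74 ± 0.27), and the accessory subunit Scn2b at 102, 129, 149 and 232 CPM against 5.61 to 43.6 (2.81 ± 0.16). Both were higher by 6.11 and 2.92 with the 64 cells. Scn8a, the channel of mature nodes of Ranvier, was lower at 177, 45.6, 146 and 45.4 CPM against 201 to 258 (-0.92 ± 0.17), as were Scn1a (-0.49 ± 0.14) and Scn4b (-1.65 ± 0.15). Fgf13, which binds sodium channels, was higher (5.31 ± 0.46), but 48.5% of its type II UMIs lay in 1 cell.

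Type II fibres are known to lack myelin. Genes of the node and the myelinated axon were lower in 17 and higher in 5 of 28 cases (median -0.54). With the 64 cells 20 were lower and 5 higher (median -1.31), and with separate labels 18 were lower and 3 higher. Ank3, the ankyrin that gathers channels at nodes, stood at 117, 75.9, 74.3 and 40.9 CPM against 123 to 153 (-0.76 ± 0.14). Gldn, gliomedin, went the other way at 150, 319, 295 and 359 CPM against 55.9 to 138 (1.39 ± 0.16). It is also made by Schwann cells, and its difference was 0.66 without the cells with 3 or more Fabp7 UMIs.

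Other channels and receptors were mostly low in UMIs. Of 13 calcium channel genes 4 were higher and 1 lower (median 0.14), led by Cacna2d2 at 27.4, 91.1, 61.5 and 81.8 CPM against 1.13 to 11 (3.67 ± 0.30). Of 26 HCN, TRP, chloride and mechanically gated channel genes 6 were higher and 6 lower (median 0.08), and with the 64 cells alone 2 of 24 were higher and 10 lower (median -0.59, or -0.54 at the bound). Ano2, a calcium-activated chloride channel, stood at 12.8, 22.8, 28.2 and 31.8 CPM against 0 to 0.295 (8.14 ± 0.62), and Asic3, an acid-sensing channel, at 338, 403, 377 and 250 CPM against 537 to 923 (-1.01 ± 0.09). Hcn2 was lower by -0.91 ± 0.15 with all cells and by -2.45 with the 64. Of 16 purinergic, cholinergic, GABA and glycine receptor genes 1 was higher and 3 lower (median 0.12), and with the 64 cells 1 and 5 (median -0.53, or 0.00 at the bound). The nicotinic subunit gene Chrna5 stood at 11, 30.4, 23.1 and 27.3 CPM against 0 to 0.309 (7.68 ± 0.63). P2rx2 and P2rx3, ATP receptors studied in type II neurons and in pain fibres, had 5 UMIs each in type II. P2rx2 was not called (0.16 ± 0.67) and P2rx3 was below the low-count filter. Of 8 nociceptor-associated genes tested 4 were higher and 2 lower (median 1.38), and 22 of the 30 on that list were not tested. With the 64 cells alone and with separate labels 3 of 7 were higher and 2 lower (medians 0.32 and 0.28). Leaving out cells with 3 or more Fabp7 UMIs also gave 3 and 2 of 7, with a median of -0.18. Calca, Scn9a and the GDNF receptor gene Gfra1 (2.71 ± 0.25) were among the higher ones with all cells, and the 2 lower ones are not named here.

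Neurotrophic signalling genes were higher in 7 and lower in 2 of 16 cases (median 0.36), and in 6 and 2 with the 64 cells (median -0.22, or -0.07 at the bound). Bdnf, a ligand that neurons and sensory epithelia make, had 22 UMIs at 11, 22.8, 15.4 and 31.8 CPM against 0.126 to 1.86 (5.21 ± 0.54). Gfra1 stood at 38.4, 68.4, 46.1 and 95.4 CPM against 4.49 to 9.95. Ntrk2, the receptor of BDNF, was called with all cells (0.59 ± 0.12) and stood at 0.03 with the 64 cells, not called. Nrtn, a ligand of the GDNF family, was lower (-1.18 ± 0.31).

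Transcription factor genes were higher in 17 and lower in 7 of 52 cases (median 0.24), and in 13 and 11 of 49 with the 64 cells (median -0.02, or 0.00 at the bound). Ebf3, a factor of the EBF family, was higher beside Gata3, at 34.8, 53.2, 41.0 and 59.1 CPM against 8.68 to 14.4 (1.83 ± 0.25). Klf7 (1.14 ± 0.15) and Tshz3 (1.15 ± 0.25) were also higher, while Isl1 (-1.03 ± 0.11), Esrrg (-1.39 ± 0.22) and Casz1 (-2.06 ± 0.39) were lower. Pou4f1 was called higher with all cells (1.06 ± 0.20) and lower with the 64 cells alone (-2.23, adjusted p = 0.00024, edgeR), where its mean was 9.53 CPM. Its 12 type I sums ran from 7.5 to 178 CPM.

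Secreted and matrix genes were higher in 12 and lower in 8 of 47 cases (median 0.39), and in 8 and 9 of 39 with separate labels (median -0.07). Leaving out cells with 3 or more Fabp7 UMIs gave 10 higher and 7 lower (median -0.01). Nog stood at 36.6, 98.7, 92.2 and 54.5 CPM against 0 to 0.628 (8.01 ± 0.36), and Cilp at 20.1, 60.8, 76.8 and 86.3 CPM against 0 to 1.12 (7.97 ± 0.41). Fstl5, a follistatin-like gene, stood at 25.6, 53.2, 38.4 and 49.98 CPM against 0 to 0.625 (8.34 ± 0.50), and Edaradd, an adaptor of the ectodysplasin receptor, at 20.1, 22.8, 28.2 and 31.8 CPM against 0 to 0.208 (8.25 ± 0.59). All 4 were nearly absent from type I and were called again with separate labels, at 8.25 to 9.37.

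Axon guidance genes were higher in 10 and lower in 10 of 45 cases (median -0.03). Efna5 stood at 76.8, 137, 177 and 164 CPM against 3.89 to 8.09 (4.46 ± 0.21), and the netrin receptor gene Unc5b at 23.8, 30.4, 35.9 and 54.5 CPM against 0.434 to 3.78 (4.03 ± 0.36). Sema3e stood at 45.7, 22.8, 30.7 and 40.9 CPM against 102 to 275 (-2.13 ± 0.18), and Sema3d was lower too (-2.63 ± 0.41). The ephrin receptor gene Epha4 (-1.61), the ephrin gene Efnb2 (-1.71) and the semaphorin receptor genes Nrp2 (-1.74) and Plxna1 (-1.68) were also lower. Cadherin and other adhesion genes had the largest number of increases with all cells, with 25 higher and 8 lower of 51 (median 0.68). Leaving out cells with 3 or more Fabp7 UMIs gave 13 higher and 6 lower (median 0.44). With the 64 cells 20 were higher and 9 lower (median 0.58), and with separate labels 9 of 49 were higher and 6 lower (median 0.28). Opcml stood at 34.8, 53.2, 28.2 and 22.7 CPM against 0.197 to 1.79 (5.13 ± 0.39) and Pcdh17 at 95.1, 60.8, 43.5 and 45.4 CPM against 0.754 to 1.87 (5.68 ± 0.29). Pcdh9, at 298, 22.8, 74.3 and 132 CPM (3.03 ± 0.38), rested mostly on the 31 cells, at 297 CPM there and 40.4 in the 64.

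Calcium-binding protein genes were lower in 12 and higher in 7 of 28 cases (median -0.19). Cpne8 stood at 86.0, 205, 143 and 154 CPM against 2.71 to 4.64 (5.22 ± 0.19), Hpcal1 at 236, 410, 361 and 286 CPM against 10.4 to 28.2 (4.21 ± 0.12) and Necab1 at 23.8, 91.1, 51.2 and 95.4 CPM against 0 to 1.16 (7.14 ± 0.41). Each was above every type I sum in every mouse. S100b was lower, at 646, 349, 330 and 377 CPM against 817 to 1032 (-1.06 ± 0.11), and Cpne9 by -2.73 ± 0.25. Calb2, the calretinin gene whose level divides the type I subtypes from 583 to 10826 CPM, ran from 304 to 2908 CPM in type II, and 51.6% of its type II UMIs lay in 1 cell. Of 17 pump genes 5 were higher and 4 lower (median -0.13). The plasma membrane calcium pump Atp2b4 was higher (5.17 ± 0.53) and its paralog Atp2b2 lower (-1.11 ± 0.15). Fxyd7, a modulator of the sodium pump, stood at 9.15, 7.59, 71.7 and 195 CPM against 0.289 to 2.71 (6.0 ± 0.54), with 45.5% of its UMIs in 1 cell.

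The putative neurons are the other small population, with a median of 5647 ± 2340 UMIs per cell. Against them 848 of 13005 genes were higher in type II (6.52%) and 910 lower (7.0%). The markers separated type II from them nearly as far as from type I, with log2 differences of 7.37 for Dupd1, 7.05 for Prph, 6.76 for Th, 6.31 for Myl1 and 3.17 for Gata3, each passing the test. Npy (0.20, adjusted p = 0.64, edgeR) and Pam, a peptide amidating enzyme (-0.29, adjusted p = 0.61), did not pass it. Of the 505 putative cells 4 held 3 of the 5 type II markers and 1 held 4. This comparison shares the type II sums with the one against type I, so the values are set side by side and not counted as a second line of support. Without mouse 3 the count of called genes fell from 1758 to 1081.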

How the data were processed

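The authors deposited UMI counts per gene and cell for each of 4 mice, with a population label for each cell. Reads were processed with Cell Ranger 2.0.1 and Seurat 1.4 on mm10, per the submitters' processing notes. How the labels were assigned, cells filtered and doublets treated is not stated in those notes or the labels. The per-mouse tables held the same values as the deposited combined count table (0 of 121793959 values differed), and a deposited table of normalized values was not used. No cell was removed and no doublet caller was run.

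Counts were summed per mouse and population into 20 sums, filtered with filterByExpr, scaled with TMM and fitted in edgeR 4.0.16 (R 4.3.3, limma 3.58.1) with population and mouse terms. The main contrast was type II against the mean of the 3 type I subtypes, each with equal weight. Robust dispersion estimates were adopted after the fit without them had also been seen. The standard error is the log2 difference divided by the root of the F statistic. DESeq2 1.42.0 was an alternative, and the scripts were tested on simulated data. Sums of 1 mouse share the animal, and their deviations from the population means correlated at 0.013 to 0.573 (median 0.168) over 40 pairs, and at 0.0495 to 0.144 between type II and type I.

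Named genes are the 5 markers, the 12 most abundant genes that were called higher than each subtype, differed from the mean of type I by at least 2 on the log2 scale, were higher in 4 of 4 mice and were still called without cells with 3 or more Fabp7 UMIs, the 12 genes with the largest falls among those with at least 50 CPM in each subtype, lower in 4 of 4 mice and still lower without cells that lack Prph, and up to 4 called members per list with the largest differences and at least 20 UMIs. The members and lists were chosen with earlier results of these data known. The alternatives with 3 or more markers, without the deepest cells and without robust estimates were chosen after seeing the data. Intervals and limits from 0 UMIs use 3 counts and cover counting error only. Some named genes are not reported here.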

Additional observations from a re-analysis of the deposited data

Results flagged for a closer look

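Of 104 values compared over the 4 mice, 10 had 1 mouse whose gap to the nearest other, divided by the range, passed Dixon's critical value of 0.83. Chance flags about 1 in 20 such groups. In 6 of the 10 the outlying value was a single high value in mouse 4, although Cdh22 there rests on very few UMIs. Gap43, the growth cone gene, stood at 227 CPM in mouse 4 against 30.4 to 43.5 in the others. Sncg stood at 1490 CPM in mouse 4 against 733 to 820, and Calca at 68.2 CPM against 14.6 to 20.5. Fgf13 stood at 90.9 CPM in mouse 4 against 11 to 15.2, with 48.5% of its type II UMIs in 1 cell. Dusp26 stood at 168 CPM in mouse 4 against 97.3 to 106, and Cdh22 at 4.54 CPM against 0 in the other mice.

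The remaining values lay in other mice. Kcnc4 stood at 45.7 CPM in mouse 1 against 105 to 114, and the share of thinned cells with a Th UMI was 17.4% in mouse 1 against 30.8% to 33.3%. Mouse 1 is also the mouse in which cells with 0 to 2 markers held the largest share of type II UMIs, at 72.4%, and the part of those cells in the 2 values was not tested. Plppr4 stood at 0 CPM in mouse 2 against 15.4 to 18.3, and Ttn at 5.12 CPM in mouse 3 against 0 in the others.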

How the results depend on the processing

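Of 1486 pairs of a named gene and an alternative, 1441 kept direction and call, 42 lost the call, and 3 turned sign, all for Pcp4, which stood at -1.71 without cells that lack Prph, -0.12 with separate labels and -1.74 with the cells of 3 or more markers. In all, 80 of 96 named genes passed with 1 sign in every alternative that could be fitted. Most named genes were picked for being called, and some for staying called without the Fabp7 cells or without cells that lack Prph. The 1441 pairs and the 80 genes therefore do not show how well all calls held. Of the 3088 calls against type I, 1800 were made again without cells with 3 or more Fabp7 UMIs. With separate labels 1726 were made again. Against 3088 genes called between type II and type I, the count was 1812 with all populations cut to equal cell numbers, 1986 with cells thinned and 1914 without cells with 3 or more Fabp7 UMIs. Genes higher than each subtype numbered 1154, and 508, 625, 626 and 687 with the same number of cells, thinning, without those Fabp7 cells and with separate labels. Genes lower than each numbered 990, and 398 with the same number of cells, 616 without the Fabp7 cells, 1858 without cells that lack Prph and 1866 with 3 or more markers. Against putative neurons 1758 became 872, 1139, 2829 and 2867 with the same number of cells, thinning, Prph cells and 3 or more markers, and 1139 with only the populations compared in the fit. Leaving out 1 mouse gave 2226 to 2932 against type I, 1081 to 1793 against putative neurons, 846 to 1065 higher and 636 to 1120 lower than each subtype, lowest without mouse 3 each time. Without the replicate block the counts were 3104, 1629, 1081 and 968, and no named gene lost its call. The counts do not share a denominator, as 13005 genes were tested in the main fit, 5736 with the same number of cells and 11022 with thinning. The cause of these shifts was not tested.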
